A study of Homo sapiens with 10 samples.

Results

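The collapsin response mediator proteins form a family of 5 genes, DPYSL2, DPYSL3, DPYSL4, DPYSL5 and CRMP1, which were taken by name from the 33551 rows of the count table. All 5 were found and all 5 passed the filter on low counts. The family was selected on the measured line contrasts of DPYSL3, and its other members were added by name. The contrasts between lines are therefore given for the members as a description, with levels and standard errors and without a p-value, and the tests are those of the vector.

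A549 is an established human lung adenocarcinoma line. Per the labels, 5 A549 lines were grown: wild type for ABCA3 (WT), a line labelled knockout for that gene (KO), and 1 line each with the variant L101P, E292V or E690K. The ABCA3 protein loads surfactant lipid into the storage organelles of alveolar type 2 cells. From every line came an untreated library and a library of cells exposed overnight, at a multiplicity of infection of 20, to a VSVG lentiviral vector carrying ABCA3 fused to GFP, which gives 10 libraries, a single one per line and treatment. Each genotype is 1 line, and how the lines were made, whether they were cloned and how far apart they had been grown is not given in the sources used here, so a difference between genotypes and a difference between lines cannot be told apart. All 10 libraries come from cells in the same serum-supplemented medium.

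Collapsin response mediator proteins are cytosolic phosphoproteins named for collapsin, the chick form of semaphorin 3A, whose signal they relay from neuropilin and plexin receptors to the cytoskeleton of growing axons. They resemble dihydropyrimidinase, an enzyme of pyrimidine breakdown, without having its activity, and they assemble into tetramers. The kinases CDK5, GSK3 and ROCK phosphorylate members of the family and loosen their hold on tubulin. They are best known from developing neurons, and several are also studied in migrating tumour cells.

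Total counts ranged from 59430095 to 96811421 per library. Of the counts from 1 to 10, 81.4% were even, against 51.5% of those above 1000, as when each sequenced fragment adds both of its mates. Levels are given as CPM, the count scaled to a common library total, with 95% Wilson intervals computed on the count divided by 2. They cover counting error only, as the labels mention no molecular identifiers. In the pair labelled KO the targeted gene went against the labels: ABCA3 was at 601 CPM in the library labelled untreated and at 25.8 CPM in the one labelled transduced, and the row for EGFP had 37.9 CPM in the first and 4 counts in the second. Directions drawn below from that pair follow its labels. Of the 6 epithelial markers, KRT7, KRT8, KRT18, KRT19, EPCAM and CDH1 were present in every library, with a summed level of 8034 to 14752 CPM, while the 6 alveolar markers summed to 2.43 to 3.53 CPM. Among 16 neuronal and neuroendocrine markers the summed level was 485.0 to 657 CPM, nearly all of it UCHL1. CHGB was at 6.87 to 31.1 CPM, SNAP25 at 2.93 to 19.1 CPM and SYP at 2.82 to 5.54 CPM. Of the 16, 10 had at most 20 counts in any library, and INSM1, STMN2 and DCX among them were at 0 in all libraries. In bulk RNA fewer cells with a transcript and less of it per cell cannot be told apart.

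DPYSL3 encodes CRMP4, which binds and bundles actin filaments as well as tubulin. The gene (ENSG00000113657.12) lies on the minus strand of chromosome 5, at 147390811 to 147510056 of GRCh38 in GENCODE release 29. RefSeq lists a pair of transcription starts for it, the outer one for the long isoform and the inner one for the common shorter isoform, and a count per gene does not separate them. Because the results turn on this gene, the 250 bases before each start are shown (RefSeq, GRCh38.p14, minus strand, 5′ to 3′), with the GC box, the hexamer GGGCGG or its complement to which SP1 binds, in capitals.
DPYSL3 outer start, chr5:147510069-147510318: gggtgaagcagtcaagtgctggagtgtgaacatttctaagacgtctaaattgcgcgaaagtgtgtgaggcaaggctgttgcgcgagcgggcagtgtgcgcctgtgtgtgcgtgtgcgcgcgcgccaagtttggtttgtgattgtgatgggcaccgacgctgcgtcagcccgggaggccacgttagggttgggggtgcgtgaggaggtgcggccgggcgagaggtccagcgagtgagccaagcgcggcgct
DPYSL3 inner start, chr5:147453693-147453942: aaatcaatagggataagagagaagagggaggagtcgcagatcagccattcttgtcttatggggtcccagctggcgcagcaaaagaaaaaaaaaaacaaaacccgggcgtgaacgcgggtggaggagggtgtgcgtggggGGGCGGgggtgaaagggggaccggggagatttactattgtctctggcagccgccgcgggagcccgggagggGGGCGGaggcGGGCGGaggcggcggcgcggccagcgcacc
Both windows are rich in CpG, with 25 and 21 CpG dinucleotides and ratios of observed to expected CpG of 1.14 and 0.953, against a median of 0.558 over the 35116 promoter windows of the same length. The outer window holds 0 GC boxes and the inner one 3, and 42.6% of all windows hold at least 1. Neither holds CACCTG, the E-box that ZEB and SNAI repressors bind, which 17.5% of all windows hold on either strand, nor TATAAA, which 10.7% hold. A match or its lack describes these letters only.

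DPYSL3 separated the libraries into a high and a low set by line. In WT it was at 66.7 CPM (95% interval 64.3 to 69.2) untreated and 204 CPM (199.6 to 208) transduced. In E292V it was at 108 CPM (105 to 112) and 450.1 CPM (444 to 456). These 4 libraries were the highest, and those of the other lines lay far below them. The E690K libraries were at 4.15 CPM (3.55 to 4.85) untreated and 4.68 CPM (4.05 to 5.41) transduced. The KO libraries had 88 and 114 counts, or 1.17 CPM (0.874 to 1.58) and 1.40 CPM (1.08 to 1.82), in the order of their labels. The L101P libraries had 128 and 92 counts, or 2.15 CPM (1.69 to 2.75) untreated and 0.95 CPM (0.713 to 1.27) transduced. The transcript was thus counted in all 10 libraries, and the highest was 474 times the lowest. In the order of the line means, KO and L101P overlapped, E690K lay above both, WT lay above E690K with no overlap, and WT and E292V overlapped.

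**Figure D1:**
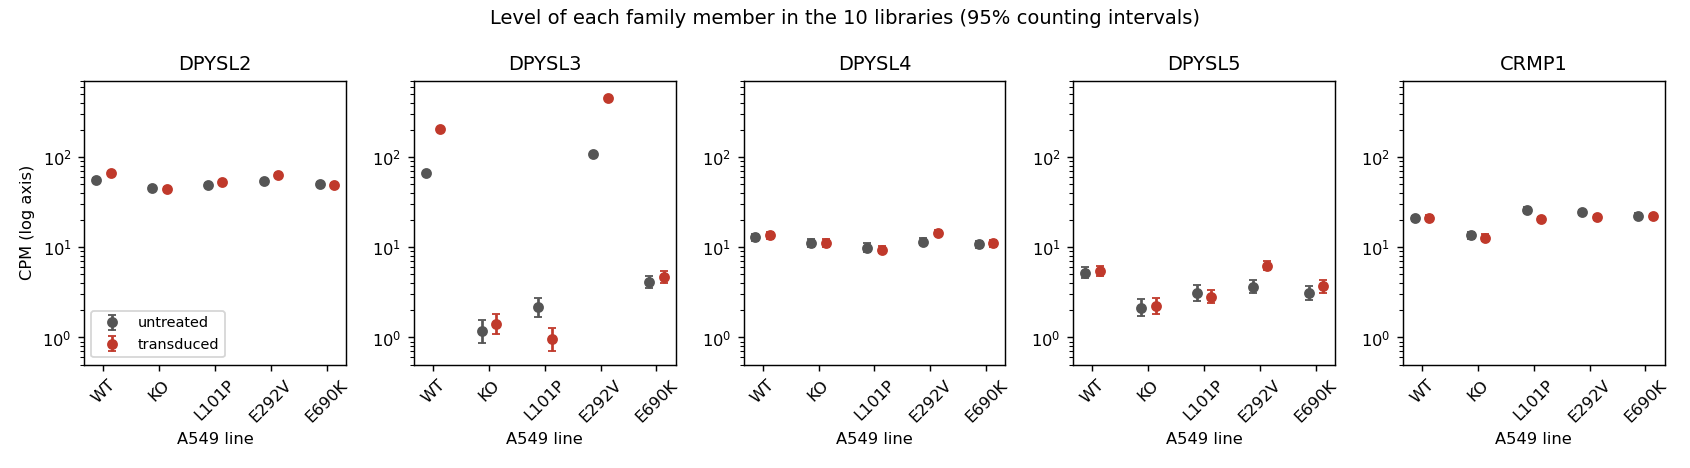
CPM of DPYSL2, DPYSL3, DPYSL4, DPYSL5 and CRMP1 (log axis) in the untreated (grey) and transduced (red) library of each line, with 95% counting intervals. DPYSL3 runs from 0.95 CPM in transduced L101P to 450.1 CPM in transduced E292V, while the other members span 1.48 to 2.92 times from their lowest to their highest library.

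In the fit over all libraries, with line and vector as additive terms, the log2 fold changes of DPYSL3 against WT were -6.56 (SE 0.56) for KO, -6.34 (SE 0.56) for L101P, -4.70 (SE 0.49) for E690K and 0.98 (SE 0.40) for E292V. The size depended on the treatment of the libraries compared. For L101P the difference was -4.95 among untreated and -7.75 among transduced libraries, and for KO it was -5.83 and -7.18. The series title sets a type 1 against a type 2 class of variant, and L101P differed from the mean of E292V and E690K by -4.48 (SE 0.53) for DPYSL3. That mean joins a high and a low line: L101P lay below the lower of them, E690K, by a range that did not overlap.

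DPYSL2 (ENSG00000092964.17) encodes CRMP2, the member that carries tubulin dimers to growing microtubule ends. In CPM per kilobase of merged exons, after scaling by the trimmed mean of M-values, it had the highest median level of the family over the 10 libraries, 7.10, against 3.65 for CRMP1, 3.54 for DPYSL4, 0.629 for DPYSL3 and 0.472 for DPYSL5. With the length of the longest coding transcript in place of merged exons the order of the medians was the same, with values from 10.8 for DPYSL2 to 0.641 for DPYSL5. With merged exons DPYSL3 stood at 62.0 in transduced E292V, 28.1 in transduced WT, 14.7 in untreated E292V and 9.16 in untreated WT. In these 4 libraries it was above every level of any other member, of which the highest was 8.97 for DPYSL2. In the 6 libraries of KO, L101P and E690K DPYSL3 was between 0.137 and 0.671. With the longest coding transcript the rank above every such level was lost in untreated WT. DPYSL3 was at 11.98 there, above DPYSL2 in the same library (11.49). It was below DPYSL2 in transduced WT (13.63) and in transduced E292V (13.12).

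The level of DPYSL2 was 56.2 CPM (53.9 to 58.5) in untreated and 66.4 CPM (64.0 to 69.0) in transduced WT, and 54.1 CPM (51.8 to 56.4) and 63.9 CPM (61.6 to 66.2) in E292V. It was 50.6 and 49.4 CPM in E690K, 49.3 and 52.9 CPM in L101P, and 45.5 and 44.7 CPM in KO. WT and E292V were thus the upper lines here too, with overlapping ranges, and KO was the lowest, below all 8 other libraries. The log2 fold changes against WT were -0.41 (SE 0.09) for KO, -0.24 (SE 0.09) for E690K, -0.22 (SE 0.09) for L101P and -0.06 (SE 0.09) for E292V. The annotated span of DPYSL2 meets that of PNMA2 on the other strand, and whether counting used strand is not given in the sources used here.

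DPYSL5 encodes CRMP5, the family member most distant in sequence and the autoantigen of anti-CV2 paraneoplastic syndromes. The gene (ENSG00000157851.16) lies on chromosome 2 from 26847747 to 26950351 on the plus strand and was the scarcest member by its median. In WT it was at 5.24 CPM (4.59 to 5.98) untreated and 5.46 CPM (4.79 to 6.23) transduced, and at 3.65 CPM (3.10 to 4.30) and 6.24 CPM (5.57 to 6.99) in E292V. In KO it was at 2.13 CPM (1.71 to 2.66) and 2.22 CPM (1.80 to 2.72), the lowest of all lines. L101P, at 3.11 and 2.83 CPM, and E690K, at 3.09 and 3.69 CPM, overlapped, and E690K overlapped E292V. Against WT the log2 fold changes were -1.27 (SE 0.23) for KO, -0.81 (SE 0.23) for L101P, -0.62 (SE 0.23) for E690K and -0.14 (SE 0.22) for E292V. For E292V the value was -0.52 among untreated and 0.19 among transduced libraries.

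DPYSL4 encodes CRMP3 and has been described as a target of p53. The gene (ENSG00000151640.12) lies on chromosome 10 from 132186900 to 132205776 on the plus strand. Its level was 12.9 and 13.6 CPM in untreated and transduced WT, 11.5 and 14.6 CPM in E292V, 11.1 and 11.2 CPM in KO, 10.8 and 11.1 CPM in E690K, and 9.93 and 9.44 CPM in L101P. Here L101P, not KO, was the lowest line, and it did not overlap the next one, E690K. The log2 fold changes against WT were -0.41 (SE 0.13) for L101P, -0.23 (SE 0.13) for E690K, -0.22 (SE 0.13) for KO and -0.03 (SE 0.13) for E292V.

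CRMP1, which has been described as a suppressor of invasion in lung adenocarcinoma cells, departed from the other members in L101P and E690K. The means of these lines did not lie below that of WT. It was at 20.9 and 21.4 CPM in untreated and transduced WT, 22.4 and 22.2 CPM in E690K, 24.5 and 21.5 CPM in E292V, and 25.9 and 20.7 CPM in L101P. In KO it was at 13.6 CPM (12.4 to 14.8) and 12.8 CPM (11.7 to 13.9), below the 8 other libraries, which lay between 20.7 and 25.9 CPM. The log2 fold change against WT was -0.66 (SE 0.11) for KO, and 0.17, 0.13 and 0.11 (SE 0.11 each) for L101P, E690K and E292V. For L101P the sign was not stable, with 0.31 among untreated and -0.05 among transduced libraries. CRMP1 (ENSG00000072832.14) is a minus-strand gene of chromosome 4 (5748084 to 5893058), and the long gene model reaches into EVC on the other strand, so that its count and its length per kilobase are uncertain. Across the family, DPYSL2, DPYSL3, DPYSL4 and DPYSL5 had their highest library in transduced WT or transduced E292V, whereas CRMP1 had it in untreated L101P.

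To see whether the vector changed the family, the transduced library of each line was first set against its untreated one. The log2 change of DPYSL3 was 2.05 (95% counting interval 2.01 to 2.10) in E292V and 1.61 (1.55 to 1.67) in WT. In L101P it was -1.18 (-1.76 to -0.61), and in KO and E690K the intervals included 0, with 0.26 (-0.33 to 0.86) and 0.17 (-0.14 to 0.49). The lines with much DPYSL3 thus had more of it in the transduced library, by 3.06 times in WT and 4.15 times in E292V. Among genes averaging 1 CPM or more over the pair, 9 of 13042 had a larger increase than DPYSL3 in E292V and 7 of 13036 in WT, and 50 of 12853 had a larger decrease in L101P. The row for EGFP rose in the same pairs, from 20.7 to 66.8 CPM in E292V, from 70.9 to 153 CPM in WT and from 1.01 to 35.9 CPM in L101P, where DPYSL3 was lower. The EGFP row did not rise beyond counting error in the E690K pair (log2 0.14, -0.02 to 0.3), with 16.34 CPM untreated and 17.99 CPM transduced. Untreated WT had more of it than transduced E292V, L101P or E690K. ABCA3 was lower in transduced than in untreated L101P (log2 -0.37, -0.39 to -0.35). The labels of these pairs were kept as given. The part of the vector level in the DPYSL3 changes, or in their absence in E690K, was not tested.

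The other members moved less. DPYSL5 was 1.71 times higher in transduced E292V (log2 0.77, 0.48 to 1.07), and its intervals in the other 4 lines included 0. DPYSL2 differed by a log2 of 0.24 (0.16 to 0.32) in both WT and E292V and by 0.10 (0.01 to 0.20) in L101P, and DPYSL4 by 0.34 (0.17 to 0.51) in E292V alone beyond counting error. CRMP1 went the other way, with -0.33 (-0.46 to -0.19) in L101P and -0.19 (-0.32 to -0.06) in E292V. In the E292V pair 4 members were therefore above counting error in the transduced library and CRMP1 below it. A 2-fold change in either direction was passed by 1 of the 5 members in WT, where 0.698% of all such genes passed it, by 1 in E292V (1.41% of genes) and by 1 in L101P (2.35%), each time DPYSL3. In KO and E690K 0 members passed it, as did 0.576% and 0.405% of genes. With 1 library for each line and treatment these changes have no replicate check, and differences between lines in them were not tested.

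**Figure D2:**
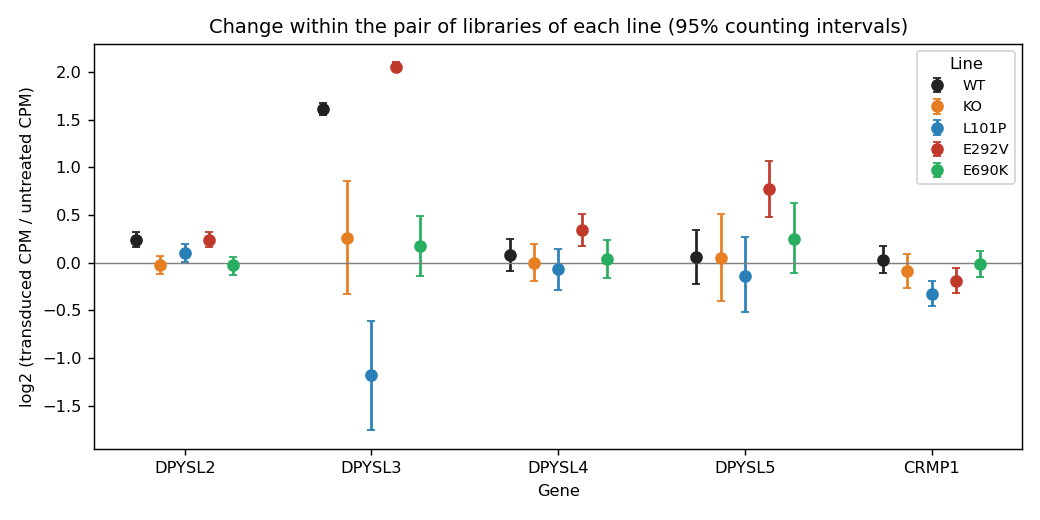
Log2 ratio of the transduced over the untreated CPM of each family member in each line, with 95% counting intervals. DPYSL3 lies at 2.05 in E292V, 1.61 in WT and -1.18 in L101P, and the changes of the other members lie between -0.33 and 0.77.

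The vector effect was then tested with the 5 lines as replicates and line as a block. Of the 5 members 0 passed an edgeR adjusted p of 0.05 (quasi-likelihood test), as did 0% of the 17978 genes tested, while 2 members had an unadjusted p under 0.05 and 0 passed the DESeq2 Wald test. Over all genes 1236 had an unadjusted p under 0.05, and DESeq2 called 113. DPYSL3 had a log2 fold change of 1.05 (SE 0.32, unadjusted p 0.00632, edgeR adjusted p 0.445). It was higher in 4 of 5 lines, but beyond counting error in WT and E292V only. DPYSL2 had 0.13 (SE 0.06, unadjusted p 0.0484, edgeR adjusted p 0.721) and was higher in 3 lines. For DPYSL5, DPYSL4 and CRMP1 the log2 fold changes were 0.23, 0.10 and -0.10 (SE 0.14, 0.08 and 0.07; edgeR adjusted p 0.839, 0.897 and 0.869). The DPYSL3 result rested on single pairs. Without the L101P pair it was 1.40 and passed (edgeR adjusted p 0.00213), in a setting where 133 of 17731 genes were called. Without the E292V pair it was 0.51 (edgeR adjusted p 0.962). Without the KO pair, whose ABCA3 and EGFP levels go against its labels, it was 1.10 (edgeR adjusted p 0.811). It also passed with no filter on low counts (1.04, edgeR adjusted p 7.4e-07), where 237 of 24252 genes were called, while the DESeq2 Wald test gave 0.62 (adjusted p 0.952).

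Upstream of the family stand the class 3 semaphorins, their neuropilin and plexin receptors and the adhesion molecule L1CAM, a co-receptor of neuropilin, and 14 such genes were tested. Against WT, 5 were higher and 0 lower in L101P, 4 higher and 1 lower in E690K, 1 higher and 0 lower in KO, and 0 changed in E292V (edgeR adjusted p under 0.05). Over all genes tested, 3.94% were called in L101P (2.33% higher, 1.61% lower), 5.38% in E690K (3.05% and 2.33%), 1.8% in KO (0.807% and 0.99%) and 1.05% in E292V (0.295% and 0.756%). The median log2 fold changes of the list were 0.20, 0.40, 0.16 and 0.22 in that order of lines, where those of all genes lay between -0.02 and 0, and without SEMA3D, which had 0 counts in both KO and both L101P libraries, they were 0.26, 0.38, 0.21 and 0.21. Unadjusted p-values under 0.05 numbered 8, 9, 8 and 7 of 14 in L101P, E690K, KO and E292V, and 3292, 3474, 2532 and 1857 of the 17978 genes. The DESeq2 Wald test called 7, 7, 3 and 2 of the 14, and 1236, 1464, 744 and 432 of all genes. The 4 contrasts share the WT libraries, and without the L101P pair the counts over all 48 pathway genes rose to 13 higher and 3 lower in E690K, 5 and 1 in KO, and 3 and 4 in E292V. The calls over all genes rose in that setting too, from 967 to 1993 in E690K, from 323 to 1120 in KO and from 189 to 689 in E292V, of 17731 genes then tested.

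PLXNA3, a plexin that pairs with neuropilins in semaphorin reception, was at 14.8 and 23.0 CPM in untreated and transduced WT and between 21.4 and 32.8 CPM in the other 8 libraries, which overlap the transduced WT value. It was higher in L101P, E690K and KO by log2 fold changes of 0.77, 0.74 and 0.59 (SE 0.12 each, edgeR adjusted p 0.00521, 0.00359 and 0.0270), and the KO call was lost without the E690K pair (edgeR adjusted p 0.0641). PLXNA4, a further plexin of this class, was higher in L101P (1.48, SE 0.27, edgeR adjusted p 0.0112) and E690K (1.54, SE 0.27, 0.00597). It was at 1.05 and 1.65 CPM in the WT pair, 2.52 and 5.04 CPM in L101P and 3.31 and 4.02 CPM in E690K. L1CAM was higher in E690K (1.10, SE 0.12, edgeR adjusted p 3.15e-04) and L101P (0.62, SE 0.12, 0.0145).

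Of the ligands, SEMA3C was higher in E690K (0.70, SE 0.08, edgeR adjusted p 3.15e-04), at 219 and 233 CPM against 132 and 157 CPM in WT, and SEMA3B was higher in L101P (1.38, SE 0.26, edgeR adjusted p 0.0132), at 20.9 and 46.7 CPM against 11.9 and 14.0 CPM. SEMA3E was lower in E690K (-1.31, SE 0.34, edgeR adjusted p 0.0410), a call lost without the KO pair (edgeR adjusted p 0.0712) and under the DESeq2 Wald test (adjusted p 0.0825). SEMA3A, the ligand that gave the family its name, was between 28.5 and 35.8 CPM in the 10 libraries and passed in no contrast. NRP1, the neuropilin that binds SEMA3A, was the most counted gene of the list, at 251 to 348 CPM, and was higher in L101P by 0.35 (SE 0.08, edgeR adjusted p 0.0347), a call lost without the KO pair (edgeR adjusted p 0.0700) or the E690K pair (0.0711).

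**Figure D3:**
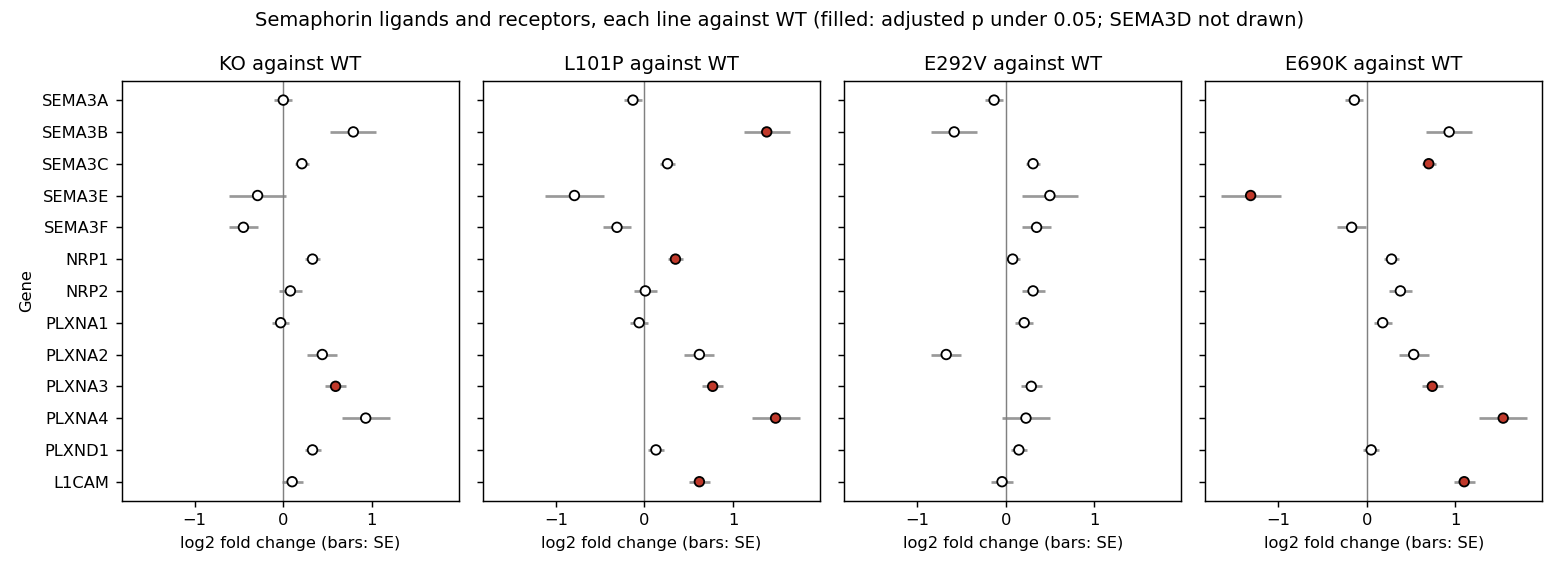
Log2 fold change of 13 semaphorin pathway genes in each line against WT, with bars of 1 SE and filled points for an edgeR adjusted p under 0.05. SEMA3D, with 0 to 36 counts per library, is not drawn. PLXNA3 is filled in KO, L101P and E690K, and no gene is filled in E292V.

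Genes that act on or with these proteins inside the cell were counted in the same way. Among the 18 kinases, GTPases and regulators, which include CDK5, GSK3A, GSK3B, DYRK2, ROCK1, ROCK2, RHOA and RAC1, 0 passed edgeR in any of the 4 lines against WT. Unadjusted p-values under 0.05 numbered 1, 5, 3 and 6 of 18 in KO, L101P, E292V and E690K, against 2532, 3292, 1857 and 3474 of the 17978 genes, and the DESeq2 Wald test called 3 of the 18 in E690K, where it called 1464 of all genes, and 0 in the other lines. Among the 15 microtubule, transport and actin partners, such as the tubulins TUBB and TUBA1A, the kinesin chains KIF5B and KLC1, NUMB and CYFIP1, 0 passed edgeR in any line. Here unadjusted p-values under 0.05 numbered 2, 3, 2 and 6 of 15 in the same order of lines, and DESeq2 called 2 of the 15 in E690K and 0 in the other lines, to be read against the same counts over all genes. Median log2 fold changes of the lists lay between -0.10 and 0.14. When L101P was set against E292V and E690K averaged, where 5.79% of all genes were called (3.75% higher, 2.04% lower), SEMA3B (1.21, SE 0.21) and PLXNA2 (0.70, SE 0.14) of the 14 semaphorin genes were higher, with edgeR adjusted p of 0.00694 and 0.0148, and 0 of the 14 were lower. For both genes that average joins unlike lines. SEMA3B was at 20.9 and 46.7 CPM in L101P, 23.8 and 23.7 CPM in E690K, and 9.7 and 7.44 CPM in E292V. PLXNA2 was at 46.6 and 55.1 CPM in L101P, 44.6 and 49.9 CPM in E690K, and 26.4 and 16.7 CPM in E292V. L101P thus overlapped E690K for both. In the contrast with the average, 10 of the 14 had an unadjusted p under 0.05, as did 3416 of the 17978 genes. DESeq2 called 2 higher and 2 lower, of 1470 genes in all. Of the 18 kinases, GTPases and regulators 1 was higher and 0 lower by edgeR, and of the 15 partners 0 passed, with 1 unadjusted p under 0.05 and 1 lower by DESeq2.

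With the vector, 0 of the 48 pathway genes passed edgeR, 6 had an unadjusted p under 0.05, and the DESeq2 Wald test called 3, all of them in the semaphorin list. Of all 17978 genes tested, 0 passed edgeR, 1236 had an unadjusted p under 0.05, and DESeq2 called 113. DPYS, the dihydropyrimidinase that the family resembles, had 0 counts in all 10 libraries and UPB1 at most 4. DPYD, the first enzyme of the same pathway, was at 3.75 to 7.65 CPM and passed edgeR in no contrast. Its lowest edgeR adjusted p was 0.0715, for a log2 difference of -0.54 (SE 0.16) between L101P and the average of E292V and E690K, where the DESeq2 Wald test called it lower.

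The genes most like DPYSL3 in pattern were sought by Pearson correlation of log2 CPM over the 10 libraries, among 266 genes with an average log2 CPM of at least 1 and a range of at least 2. They were GALNT16 (r = 0.981), the cadherin gene CDH4 (0.979), GFRA1, a GDNF co-receptor (0.977), the cholesterol exporter ABCA1 (0.977) and the gelatinase MMP2 (0.969). CDH4 was at 4.82 and 11.7 CPM in WT, 7.99 and 19.0 CPM in E292V and 0.589 to 2.34 CPM in the other 6 libraries, so that it too was higher in the transduced library of the pairs with high levels. GFRA1 was at 7.66 and 19.0 CPM in WT and 6.75 and 23.6 CPM in E292V, and between 0 and 0.461 CPM in the other 6. The most opposite genes were ALDH3A1 (r = -0.944), TFF1 (-0.938) and GALNT5 (-0.930). TFF1, a trefoil factor of mucous cells, was at 0.654 to 2.82 CPM in the WT and E292V libraries and at 17.6 to 106 CPM in the others. These correlations describe a split into high and low libraries, the 2 libraries of a line are not independent, and the choice of genes depended on the measure: by Spearman correlation, or without the KO pair, 1 of the 5 remained among the 5 most alike.

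**Figure D4:**
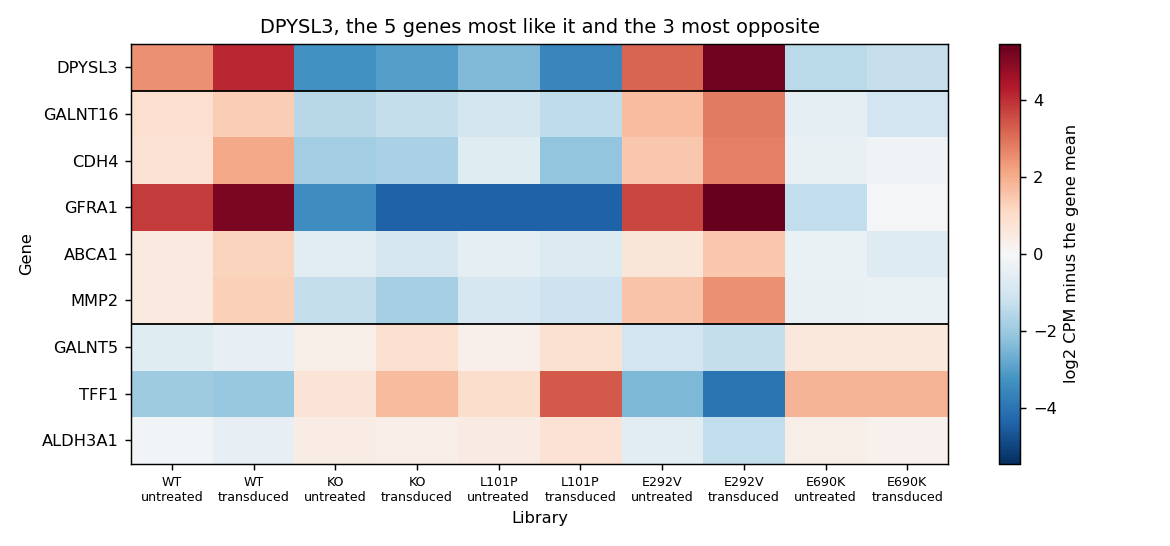
Log2 CPM minus the mean of each gene over the 10 libraries (colour) for DPYSL3, the 5 genes most like it and the 3 most opposite. The upper 6 genes are high in the 4 libraries of WT and E292V and highest in transduced E292V, and TFF1, GALNT5 and ALDH3A1 are lowest there.

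For the other members the likeness was to genes that differ less in size. DPYSL5 was most like SLC2A6 (r = 0.968) and CTGF (0.963), a matrix-associated growth factor gene also known as CCN2, and DPYSL2 was most like UBTD1 (0.954), which was also among the 5 most like DPYSL5 (0.940). ANKRD1, a cardiac and muscle ankyrin repeat gene, was among the 5 most like DPYSL2 (0.940), at 7.47 and 17.0 CPM in WT and 7.18 and 25.2 CPM in E292V. DPYSL4 was most like MSC (0.957), a transcription factor gene at 4.93 and 15.5 CPM in E292V. CRMP1 was most like the row for tdTomato (0.983), a red fluorescent protein, which had 0 counts in both KO libraries, and like SAGE1 (0.961), which was at 5.95 and 4.21 CPM in KO and at 14.5 to 19.3 CPM elsewhere. Without the KO pair 0 of the 5 genes most like CRMP1 remained, so that this likeness rested on the KO libraries. All these correlations are over 10 libraries and 11968 genes.

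Genes beside DPYSL3 on chromosome 5 were examined next. Of 26 annotated genes of the table within 1 Mb, 4 were tested and 0 passed edgeR in any of the 4 contrasts with WT. STK32A and SPINK1, both of low count, had unadjusted p-values under 0.05 in KO, L101P and E690K, in opposite directions. In that order of lines the log2 fold changes of STK32A were -2.99, -4.58 and -5.35. Those of SPINK1, with 0 to 48 counts per library, were 5.31, 7.21 and 6.21. Over all 17978 genes, 2532, 3292 and 3474 had an unadjusted p under 0.05. The DESeq2 Wald test called 1 of the 4 genes in L101P and 1 in E690K, where it called 1236 and 1464 of all genes. FBXO38 was between 31.9 and 37.8 CPM over the 10 libraries. STK32A, whose gene ends 2958 bases from the 3′ end of DPYSL3 on the other strand, had 0 to 172 counts, with 1.53 CPM in transduced WT, 1.81 CPM in transduced E292V and at most 0.304 CPM in the other 8 libraries, so that its 2 highest libraries were those of DPYSL3. How far reads beyond the end of DPYSL3 enter this row was not tested.

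Markers moved with some of these differences. Of the 6 epithelial markers, 1 was higher than in WT in KO, 2 in L101P, 3 in E690K and 0 in E292V (edgeR adjusted p under 0.05), and 0 were lower. Over all genes tested, 0.807%, 2.33%, 3.05% and 0.295% were called higher in that order of lines. Those called lower were 0.99%, 1.61%, 2.33% and 0.756%, and the calls below are to be read against these shares. In E292V 2 of the 6 had an unadjusted p under 0.05 and DESeq2 called 1, against 1857 and 432 of the 17978 genes. KRT19 was at 62.4 to 140.0 CPM in the WT and E292V libraries and at 204 to 459 CPM in the other 6. It was higher in L101P (1.24, SE 0.26, edgeR adjusted p 0.0211) and E690K (1.03, SE 0.26, 0.0368). KRT7, KRT8 and KRT18 shared that split by smaller margins, while EPCAM and CDH1 did not. EPCAM was at 10.7 and 7.73 CPM in WT and at 15.8 and 13.3 CPM in E292V. CDH1 was at 36.4 and 29.6 CPM in E292V and at 24.7 and 21.2 CPM in E690K. Of 9 markers of other cell types, PTPRC, PECAM1, VWF and DCN had at most 20 counts in any library. COL1A1, a collagen gene, was higher in E292V (1.42, SE 0.26, edgeR adjusted p 0.0214), at 74.3 and 118 CPM against 26.4 and 45.5 CPM in WT. The other collagens of the list were scarcely counted, with at most 22 counts for COL1A2 and 34 for COL3A1. In E292V, ACTA2 (0.36, SE 0.25) and COL3A1 (1.77, SE 1.44) did not pass (edgeR adjusted p 0.719 and 0.768). COL1A1 was also lower in L101P than in E292V and E690K averaged (-1.40, SE 0.24, edgeR adjusted p 0.00613), where 2.04% of all genes were called lower. That average joins the high E292V line with E690K, at 21.3 and 30.3 CPM, and L101P was at 22.6 and 13.8 CPM. Against WT, COL1A1 in L101P did not pass (-0.9, SE 0.27, edgeR adjusted p 0.0836). CD68, a macrophage lysosome gene, was higher in L101P than in WT (0.61, SE 0.14, edgeR adjusted p 0.0366), at 29.6 and 42.9 CPM against 25.6 and 23.0 CPM. The summed level of the 9 was 53.4 to 146 CPM. Of the 6 neuronal and neuroendocrine markers tested, SNAP25, a synaptic vesicle fusion gene, was lower in KO and L101P (-1.10 and -0.92, SE 0.19 each, edgeR adjusted p 0.0142 and 0.0222), and CHGB, a granule protein gene, was higher in L101P (1.22, SE 0.25, edgeR adjusted p 0.0190). In L101P against E292V and E690K averaged, KRT8, KRT18 and KRT19 (0.54, 0.51 and 1.21) and CHGB (1.25) were also higher, and SNAP25 (-1.22) was lower. The edgeR adjusted p-values were 0.0202, 0.0272, 0.00745, 0.00485 and 0.00255 in that order. For these keratins the L101P libraries overlapped those of E690K. Over all genes 3.75% were called higher and 2.04% lower in this contrast. The part of these markers in the DPYSL3 differences was not tested.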

How the data were processed

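RNA from 10 A549 libraries was sequenced. The table that the authors deposited holds unnormalized read counts for 33551 gene rows. Per the submitters' processing notes, featureCounts, Subread, edgeR and limma were used with GRCh38; versions, annotation, strand use and mate handling are not given in the sources used here. Counts were fitted in edgeR 4.0.16 (R 4.3.3) with line and vector as additive terms (4 residual degrees of freedom), after filterByExpr (17978 genes) and scaling by the trimmed mean of M-values (factors 0.972 to 1.028). Quasi-likelihood p-values were adjusted by Benjamini-Hochberg over all genes tested. The cell lines pair the libraries. Nothing in the labels says how many cultures stand behind a library. The p-values measure only the departure of these libraries from the additive fit of line and vector, part of which may be technical. Gene positions and lengths come from GENCODE release 29, which 98.4% of rows matched, and promoters from RefSeq. The fit was tested on simulated data. Values of a few genes are not reported here. Named genes are all 5 members, pathway genes past an adjusted p of 0.05 (1 is given only as a count), and the genes most correlated with each member. Members and lists were chosen with earlier results of these data known. Alternatives were DESeq2 1.42.0, its size factors, other filters, counts divided by 2, no block, and leaving out each pair.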

Additional observations from a re-analysis of the deposited data

How the results depend on the processing

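Each genotype is 1 line with 1 library per treatment, depth limits DPYSL3 in KO and L101P (88 to 128 counts), and line contrasts lean on an error estimated from all pairs. The vector effects of the 5 members kept their direction under every alternative run. DPYSL3 passed with no filter on low counts (1.04, edgeR adjusted p 7.4e-07) and ranged from 0.51 without the E292V pair to 1.40 without the L101P pair. With no replicate block it was 1.87 (edgeR adjusted p 1), and the block changed no call. Leave-one-out ranges were 0.09 to 0.17 for DPYSL2, 0.03 to 0.14 for DPYSL4, 0.08 to 0.31 for DPYSL5 and -0.13 to -0.05 for CRMP1. The line contrasts moved by less than 1 SE except between treatments. Among untreated and transduced libraries, in that order, DPYSL3 against WT was -5.83 and -7.18 in KO, -4.95 and -7.75 in L101P, and -4.01 and -5.44 in E690K, and L101P against E292V and E690K was -3.30 and -5.59. DPYSL2 was -0.30 and -0.57 in KO, and among transduced libraries -0.33 in L101P and -0.43 in E690K. DPYSL5 in E292V was -0.52 and 0.19, and DPYSL4 there 0.10 when transduced. CRMP1 was 0.31 and -0.05 in L101P, a change of sign, and 0.23 in untreated E292V. In L101P against E292V and E690K, DPYSL4 was -0.17 and -0.43, DPYSL5 -0.11 and -0.76, and CRMP1 -0.08 when transduced. The cause was not tested. With no filter on low counts, higher and lower pathway genes numbered 3 and 0 with the vector, 6 and 1 in KO, 7 and 2 in L101P, 3 and 3 in E292V, and 8 and 3 in E690K, while 237, 982, 1437, 662 and 1659 of 24252 genes were called. The DESeq2 Wald test gave 3 and 0 with the vector, 3 higher in KO, 7 and 0 in L101P, 1 and 1 in E292V, and 10 and 2 in E690K, while 113, 744, 1236, 432 and 1464 of 17978 genes were called, and the filter of 10 counts in every library 2 lower in E690K, with 1015 of 14610 genes called. Leaving out a pair gave 0 to 1 higher with the vector, 0 to 5 higher and 0 to 1 lower in KO, 0 to 3 higher and 0 to 4 lower in E292V, and 4 to 13 higher and 0 to 3 lower in E690K; the upper values came without the L101P pair.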
